A study of Rattus norvegicus with 2 samples.

Results

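The 2486 H3K4me3 peaks of rat chromosome 10 in C6 cells were taken from the authors' list of 30172 peaks as all peaks whose chromosome field was chr10. No score or width entered this choice of peaks, though the chromosome itself was picked with its peak density known. The peaks made up 8.24% of the list and lay between 574382 and 110677209 of the rn4 build, a span of 110.1 Mb. C6 is an established rat glioma line, here grown with 10% fetal bovine serum to 90% confluence with no treatment named, and the study consisted of 1 H3K4me3 library and 1 input library of these cells, each measured once. Both were fixed with 1% formaldehyde and sheared to about 300 bp, and 1 µg of antibody was used for the H3K4me3 precipitation. The peaks came from the H3K4me3 library called against input, without read numbers, so the depth behind each of them is unknown. Gene values were not analysed here, so the identity of the cells was taken from the labels and could not be checked against markers. With 1 library no difference has a replicate check. Intervals below are 95% intervals that cover counting error only, and neighbouring peaks are not independent, so they understate how far a repeat could differ.

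H3K4me3 is placed by the SET1 and MLL methyltransferase complexes, mostly on the nucleosomes around active and poised promoters and CpG islands, and it is bound by proteins that recruit the transcription machinery. In general, maps of the mark are dense where promoters in use are crowded and thin where genes are few. Rat chromosome 10 carries, among many others, Gfap, an intermediate filament gene used as an astrocyte marker, Nf1, a restraint on Ras signalling that is lost in some gliomas, Stat3 and Sox9, transcription factors of glial cells, Erbb2, a growth factor receptor, and the Hoxb cluster of patterning genes. Peaks could not be assigned to these genes because no rn4 gene positions were used here, and peaks are named by position.

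Chromosome 10 held 8.41% of the autosomal peaks on 4.35% of the autosomal span. Its density was 22.6 peaks per Mb (Poisson interval 21.7 to 23.5), second of 20 autosomes. The other 19 autosomes pooled had 11.2 peaks per Mb, so that the density of chromosome 10 was 2.02 times theirs (exact conditional interval 1.94 to 2.10). Against its nearest neighbours in rank, chromosome 10 had 0.87 times the density of chromosome 12 (interval 0.81 to 0.93), 1.33 times that of chromosome 20 (1.23 to 1.44) and 1.39 times that of chromosome 19 (1.29 to 1.504). Its peaks covered 3545 kb, or 3.22% of the span, against 1.57% on the other autosomes pooled and 3.76% on chromosome 12. Counting enriched regions, in which peaks with a gap of 1000 bp or less were joined, left the excess at 1.97 times (interval 1.87 to 2.07), with 15.8 regions per Mb on chromosome 10 and 8.06 on the others. The excess was therefore about as large in regions as in single peaks. The densities of chromosomes 10 and 12 stood above the other 18 in the plot of density by autosome.

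**Figure D1:**
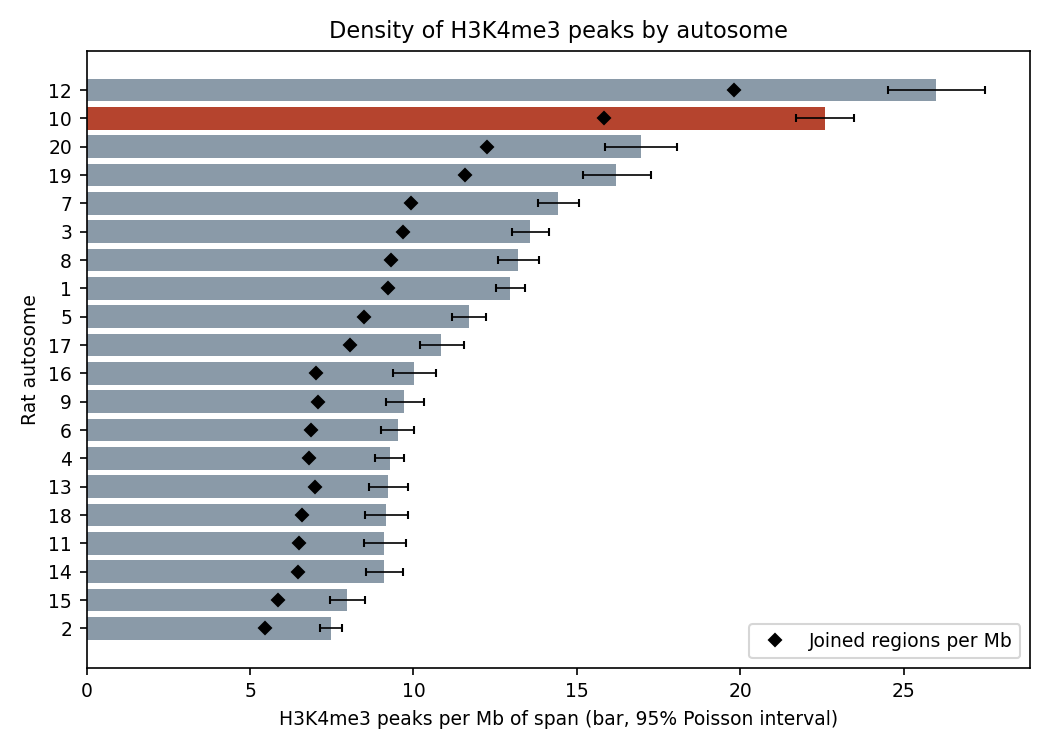
Peaks per Mb of span for each of the 20 autosomes (bars, with 95% Poisson intervals) and joined regions per Mb (diamonds). Chromosome 10 (red) had 22.6 peaks and 15.8 regions per Mb, below chromosome 12 and above the other 18 autosomes in both.

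Along the chromosome the peaks alternated between crowded and nearly bare stretches. Over the 109 full 1 Mb windows between the first and the last peak the median was 20 peaks, with quartiles of 5 and 35 and a range of 0 to 84. The median window of the other autosomes held 7, and the highest median, on chromosome 12, was 25. A window was called dense when it held 38 peaks or more, the 95th percentile of the windows of the other 19 autosomes. On chromosome 10, 23 of 109 windows were dense, or 21.1% (Clopper-Pearson interval 13.9 to 29.96%). Of the 2400 windows of the other autosomes 5.04% were dense, a share set by the cut itself. More peaks per Mb also make more windows reach the cut, so the share on chromosome 10 is tied to its density. No other autosome held as many dense windows, and chromosome 1 with 264 windows came next with 19, while by share chromosome 12 was higher at 24.4%. In all, 15.97% of the 144 dense autosomal windows lay on chromosome 10, which had 4.34% of the windows. The 23 dense windows held 1231 peaks, or 50.3% of the peaks in full windows, while dense windows held 23.2% of those of the other autosomes. In the cumulative plot by window, chromosomes 10 and 12 ran to the right of the other autosomes from about 10 peaks to about 30 peaks per window, and chromosome 10 lay between chromosome 12 and the rest over most of that range.

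**Figure D2:**
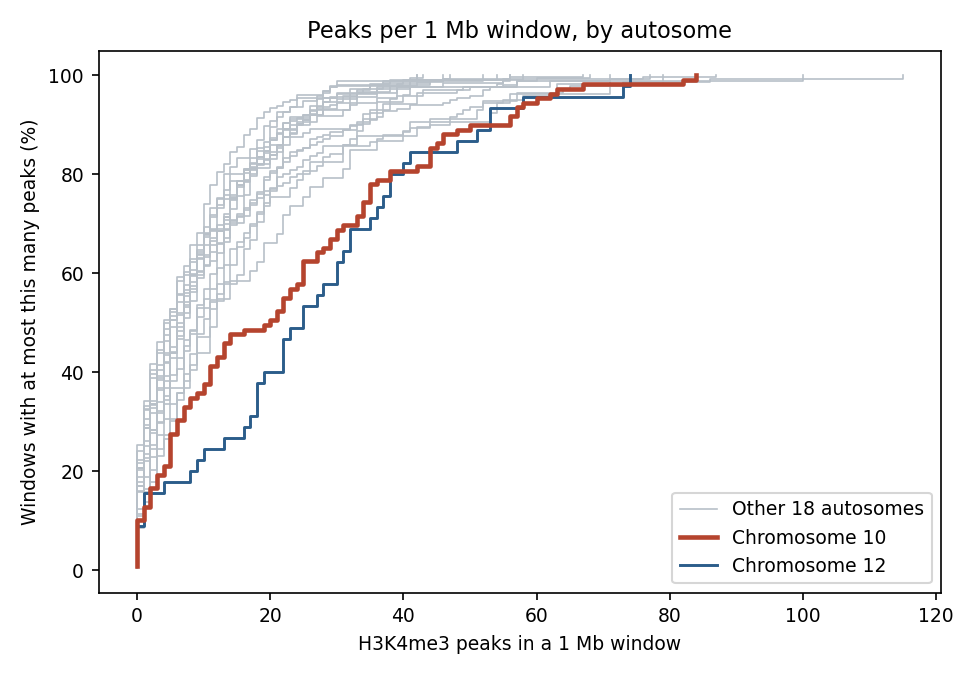
Cumulative share of full 1 Mb windows by the number of peaks in the window, 1 line per autosome. Chromosome 10 (red) had a median of 20 and a maximum of 84 peaks, chromosome 12 (blue) a median of 25, and the other autosomes medians from 4 to 12.

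The dense windows fell into 10 blocks. The longest ran from 13 to 18 Mb and held 236 peaks in 5 windows, from 38 to 57 peaks each. This equals the longest dense blocks of chromosomes 7 and 20, also of 5 windows. The next block, from 89 to 93 Mb, held 206 peaks in 4 windows. Each of the following 3 blocks was 3 windows long. They lay from 55 to 58 Mb with 170 peaks, from 85 to 88 Mb with 199 peaks and from 105 to 108 Mb with 179 peaks. The other 5 blocks were single windows from 37, 45, 62, 64 and 109 Mb, with 44 to 62 peaks. From 85 Mb to the last full window, 11 of 25 windows were dense. From 82 to 93 Mb, a stretch picked after the profile was seen, 496 peaks or 19.95% of the chromosome's peaks lay in 11 Mb.

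The 5 fullest windows differed in how strong their peaks were. The window from 86 to 87 Mb held 84 peaks in 53 joined regions, with a median score of 138.6 and 31 peaks under 100. The score is the authors' own value per peak and was taken to be 10 times −log10 of its p-value, so it grows with read number as well as with enrichment. The window from 56 to 57 Mb held nearly as many peaks, 82, in 44 regions, but its median score was 328.3 and its median width 1184 bp against 933.5 bp. The window from 87 to 88 Mb held 67 peaks with a median score of 190.1. Those from 107 to 108 Mb and from 109 to 110 Mb held 63 and 62 peaks, yet the median scores were 81.3 and 313.9, and 38 and 18 of their peaks scored under 100. Density and score of a window were thus only loosely related among the fullest ones. Within the first of these windows every 100 kb bin held a peak, with up to 18 in the bin from 86.4 to 86.5 Mb. The bins from 56.8 to 56.9 Mb and from 87.5 to 87.6 Mb, each the fullest of its window, also held 18.

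**Figure D3:**
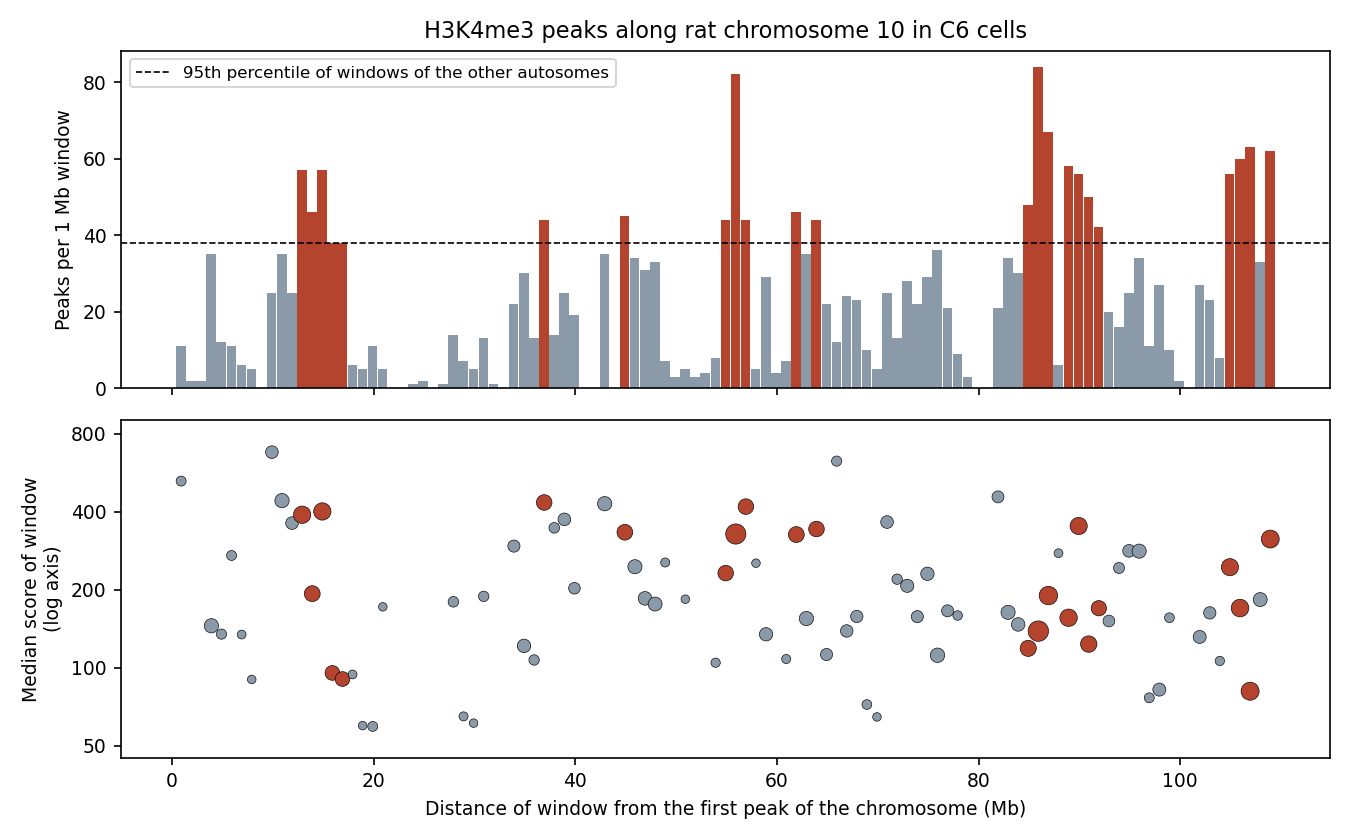
Peaks in each full 1 Mb window (top) and the median score of windows with 5 or more peaks (bottom, log axis, larger points for more peaks), by distance from the first peak of chromosome 10. Red marks the 23 windows with 38 peaks or more, whose median scores ran from 81.3 to 434.3.

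Across the 86 windows with 5 or more peaks, the number of peaks and the median score had a Spearman rho of 0.30, and the number of peaks and the median width one of 0.27. Windows share a library and neighbours, so these values only describe the profile. Among the dense windows the median score ran from 81.3 to 434.3. The highest medians among windows with 5 or more peaks were 679.0 from 10 to 11 Mb (25 peaks) and 627.1 from 66 to 67 Mb (12 peaks). The lowest were 59.5 from 20 to 21 Mb (11 peaks) and 59.9 from 19 to 20 Mb (5 peaks).

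Scores differed within the first dense block and its surroundings. From 10 to 16 Mb, 245 peaks had a median score of 389.6 with quartiles of 100.03 and 899.6, and a median width of 1246 bp. From 16 to 21 Mb, 98 peaks had a median score of 87.2 with quartiles of 59.6 and 268.1, and a median width of 802 bp. Scores under 100 made up 24.5% of the first group (interval 19.2 to 30.4%) and 56.1% of the second (45.7 to 66.1%). Scores above 1000 made up 22.4% (17.4 to 28.2%) and 11.2% (5.74 to 19.2%). The windows from 16 to 17 and from 17 to 18 Mb were dense, with 38 peaks each, but had medians of 95.6 and 90.6, while the window from 15 to 16 Mb held 57 peaks with a median of 401.0. Both stretches were picked after the profile was seen, so their difference is a description.

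In 10 Mb segments from the start of the chromosome, the number of peaks went from 41 between 20 and 30 Mb to 348 between 80 and 90 Mb. The median score was 254.6 to 265.6 in the 3 segments from 30 to 60 Mb and 152.1 to 164.7 in the 3 segments from 80 to 110 Mb. The segment from 10 to 20 Mb had 261.0 and the sparse segment from 20 to 30 Mb 108.3. The segments from 0 to 10, from 60 to 70 and from 70 to 80 Mb had 160.6, 203.9 and 182.0. The crowded stretch from 80 to 110 Mb therefore had more peaks, with a lower median score, than the segments from 30 to 60 Mb. The first segment, with only 92 peaks, had a median as low, so low medians were not limited to the crowded end. These segments were compared after the profile was seen. From 80 to 110 Mb the share of scores above 1000 was 15.1 to 18.9% by segment. From 30 to 60 Mb it was 14.4 to 19.8%, and all of these intervals overlapped.

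Empty stretches were few and short next to those of most autosomes. In 11 of the 109 windows no peak was found, or 10.1% (interval 5.15 to 17.3%), against 18.1% of the windows of the other autosomes. Chromosomes 17 and 12 had lower shares, 8.42 and 8.89%, and chromosomes 8 and 20 had 10.9 and 11.3%. A dense chromosome leaves fewer windows without a peak, so this share is partly tied to the density. The longest run of empty windows was 2 Mb, as on chromosome 20. On the other autosomes the longest run was between 1 Mb on chromosome 12 and 11 Mb on chromosome 2. The longest gap between neighbouring peaks, 3.43 Mb from 79042246 to 82469837, was shorter than the longest gap of 17 autosomes. Its flanking peaks were weak, with scores of 89.9 and 62.7. The next gap, 3.03 Mb from 21613973 to 24641240, also lay between weak peaks, which scored 60.8 and 108.2. The third, 2.22 Mb from 40883292 to 43105182, had strong peaks on both sides, one of 3080 bp with a score of 1094 and one of 2222 bp with a score of 1028. Gaps of 1.82 Mb from 25783807 to 27601397 and of 1.64 Mb from 8808589 to 10449562 completed the 5 longest. Edges of bare stretches were thus marked by weak peaks in some places and strong ones in others.

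The barest stretch was that from 22 to 28 Mb, picked after the profile was seen, with 4 peaks in 6 Mb. One of these, alone between 2 gaps of over 1 Mb, was 643 bp wide at 24641241 to 24641883 and scored 108.2. A pair from 25761418 to 25783806 had scores of 1750 and 520.7, so a strong peak was found inside the bare stretch. In contrast, a compact island from 43105183 to 43971071, bounded by gaps of 2.22 and 1.15 Mb, held 35 peaks in 0.87 Mb, or 40.4 per Mb. Its median score was 429.7, 8 of its peaks scored above 1000 and 7 under 100. Its last peak, at 43967491 to 43971071, scored 3200 and stood directly at the gap. The 13 gaps longer than 1 Mb summed to 22.6 Mb, or 20.5% of the span, and the other autosomes had 18.5 to 45.7% of their spans in such gaps. Outside them the density was 28.4 peaks per Mb, again second to chromosome 12 with 31.9. The list does not mark stretches in which no peak could have been called, and their part in these gaps was not tested.

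Single peaks of chromosome 10 had widths like those elsewhere. Their median was 1073 bp (quartiles 702 and 1809 bp, range 243 to 8371 bp), and the medians of the other autosomes ran from 974 to 1133 bp. Peaks of 4000 bp or more numbered 82, or 3.30% (interval 2.63 to 4.08%), against 3.16% on the other autosomes, and they held 11.8% of the covered bases against 11.97%. Peaks under 500 bp made up 7.76% (6.74 to 8.89%) and 7.88%. The widest peak, 8371 bp at 56201294 to 56209664, ranked 34th in width in the whole list. The maximum width was lower on 4 other autosomes.

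Among the 10 widest peaks, 8 had a score of 3100. After the widest came peaks of 8274 bp at 102809075 to 102817348, of 7514 bp at 85580937 to 85588450 and of 7165 bp at 54303983 to 54311147. The last of these scored 2835 and lay in a window of only 8 peaks. The remaining 6 were 6563 to 6904 bp wide and started at 15057228, 108201820, 105908459, 78444993, 103692845 and 105592369. The peak at 78444993 was in a window of 9 peaks. Wide peaks were therefore not limited to the dense windows.

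Scores of chromosome 10 ranked first at the upper quartile and in the share above 1000, and less high at the lower quartile, the median and the 95th percentile. The median score was 199.2 with quartiles of 76.6 and 736.2, and the medians of the other autosomes ran from 141.3 to 227.6. The upper quartile was the highest of the 20 autosomes, the next being 702.6 on chromosome 1, while the lower quartile lay within the range of the others, 66.6 to 83.6. The 95th percentile, 1881, ranked 4 of 20, below chromosomes 12 (2241), 7 (1967) and 4 (1891). A score above 1000 was found for 440 peaks, or 17.7% (interval 16.2 to 19.3%), against 15.1% of the peaks of the other autosomes pooled (14.6 to 15.5%). This was also the highest share of the 20, but chromosomes 7, 12 and 1 followed closely with 16.9, 16.8 and 16.5%. Their intervals overlapped with that of chromosome 10, as did those of most other autosomes. Per Mb, chromosome 10 had 2.37 times as many peaks above 1000 as the other autosomes (interval 2.14 to 2.62). Most of this goes with the density of all its peaks, which was 2.02 times theirs. Scores under 100 made up 34.1% (32.2 to 36.0%) against 35.2%.

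The share of scores above 1000 was also compared within windows of like density. In windows of 38 peaks or more, scores above 1000 made up 18.3% on chromosome 10 (interval 16.2 to 20.6%) and 18.4% on the other autosomes (17.4 to 19.4%). In windows of 20 to 37 peaks the shares were 17.5% (15.1 to 20.1%) and 14.8% (14.0 to 15.5%), and in those of 10 to 19 peaks 14.2% (9.58 to 19.998%) and 13.5% (12.7 to 14.3%). In the sparse windows of 1 to 9 peaks they were 18.9% (12.5 to 26.8%) over only 127 peaks and 13.8% (12.8 to 14.9%). In each class the intervals overlapped, which does not show that the shares were equal. In windows of 20 to 37 peaks the share of each set lay outside the interval of the other. Weighting the shares of the other autosomes by the number of chromosome 10 peaks in each class gave 16.4%, which lay between their own 15.1% and the 17.7% of chromosome 10 and inside its interval.

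**Figure D4:**
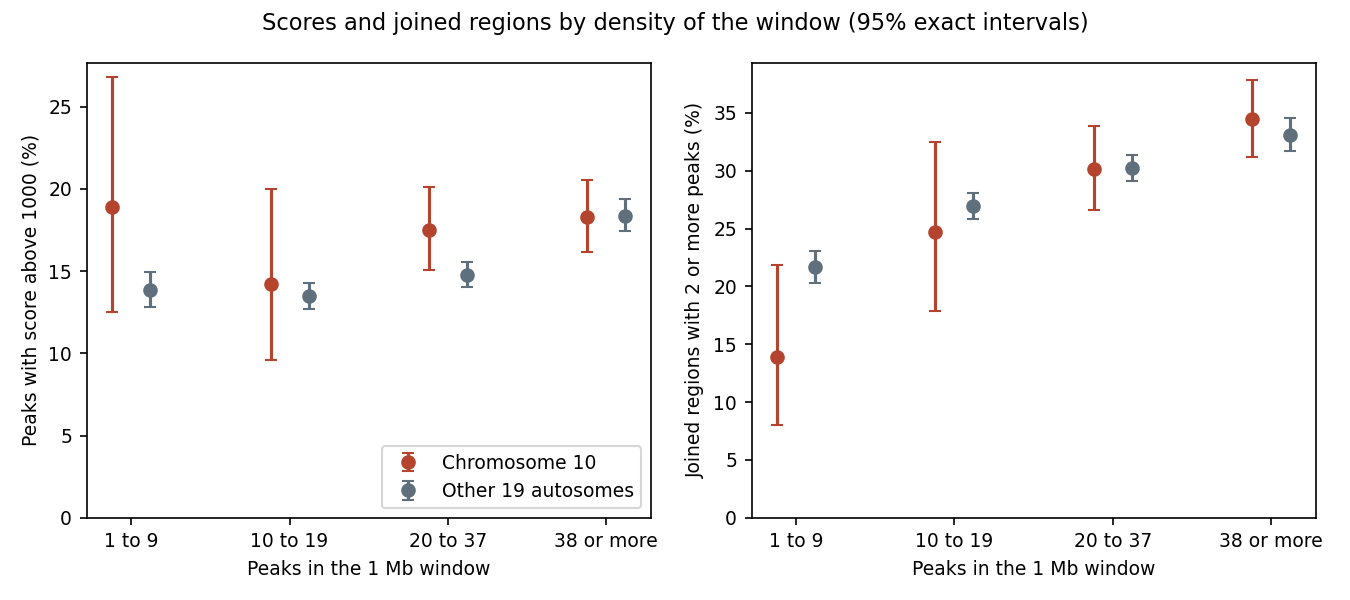
Share of peaks with a score above 1000 (left) and share of joined regions with 2 or more peaks (right) by the number of peaks in the 1 Mb window, for chromosome 10 (red) and the other 19 autosomes (grey), with 95% exact intervals. In windows of 38 peaks or more the shares were 18.3 and 18.4% on the left and 34.4 and 33.1% on the right, and the joined share rose with density in both.

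Width and score rose together on chromosome 10, with a Spearman rho of 0.84 across its peaks, against 0.80 to 0.84 on the other autosomes. A MACS p-value depends on how many reads a peak holds, so width and score are partly linked by construction. Within classes of width, and with no matching inside a class, the median score of peaks of 1000 to 2000 bp was 363.1 on chromosome 10 and 329.8 on the others, and that of peaks of 2000 to 4000 bp was 1149 and 1075. For peaks of 500 to 1000 bp the medians were 84.4 and 82.9, and for those of 4000 bp or more 2191 and 2229. The relative excess was thus found at the middle widths, and it has no replicate check.

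The 10 highest listed scores of chromosome 10 were exactly its 10 scores above 3100, out of 39 such scores in the list. This is a share of 25.6%, while the chromosome held 8.24% of all peaks of the list. They ran from 3121 to 3233. A score of exactly 3100 was found for 19 peaks, or 0.76% (interval 0.46 to 1.19%), against 0.78% on the other autosomes. If 3100 stood for p-values too small to store, those 19 would outrank the 10. The order among the strongest peaks is therefore uncertain, and the 25.6% may not describe the strongest peaks. The 19 peaks were 3177 to 8371 bp wide with a median of 6218 bp, and 11 of them lay in dense windows, which held 50.3% of the peaks of all full windows. The window from 56 to 57 Mb held 3 of them, at 56188155 to 56191857, 56201294 to 56209664 and 56397128 to 56402226. Of the 10 peaks scoring above 3100, those at 12937614, 15654375, 16022302, 43967491 and 109603657 had the highest values, from 3196 to 3233, and the other 5 were at 107220864 to 107226858 (3181), 83641040 to 83645559 (3142), 14142125 to 14146728 (3134), 55814497 to 55819037 (3126) and 105908459 to 105915326 (3121).

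Joining peaks with a gap of 1000 bp or less gave 1744 regions on chromosome 10, with 1.43 peaks per region. A single peak made up 1206 of them, while 390 held 2 peaks, 108 held 3 and 40 held 4 or more. Regions of 2 or more peaks were 30.8% (interval 28.7 to 33.1%), rank 3 of the 20 autosomes, against 28.4% on the others pooled (27.8 to 29.0%). Chromosome 12, the denser chromosome, had the lowest share, 23.9% (21.2 to 26.8%). The 2 densest chromosomes thus stood near opposite ends of this order. Within chromosome 10 the share was 13.9% (7.99 to 21.9%) in windows of 1 to 9 peaks, 24.7% (17.9 to 32.5%) for 10 to 19, 30.1% (26.6 to 33.8%) for 20 to 37 and 34.4% (31.2 to 37.8%) for 38 or more. A window with many joined regions also counts more peaks, so the 2 measures are linked. The other autosomes had 21.7, 26.9, 30.2 and 33.1% in the same classes, and weighting them by the regions of chromosome 10 gave 30.8%, against 30.7% for chromosome 10 over the same windows.

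The median width of a region was 1579 bp on chromosome 10 and 1457 bp on the others. Regions of 2 or more peaks had a median width of 3489 bp and a best score of 795.8 at the median, while single peaks had 1006 bp and 115.2. A region's best score is the highest of several, which raises it by itself. The widest region, and the one with the most peaks, lay at 57524266 to 57538905 and held 7 peaks over 14640 bp, of which 86.1% was covered. Its peaks scored, in order along the chromosome, 946.7, 1408, 250.8, 1455, 1190, 579.9 and 105.6. None of them was wider than 2593 bp, and 3 of the 7 scored above 1000. The region at 109650751 to 109664915 spanned 14165 bp and held 4 peaks of 2596 to 3692 bp. Of these, 3 scored 1160 to 1272 and the last 334.0.

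The third widest region, at 56201294 to 56214056, was built differently, since the widest single peak of the chromosome took up 8371 of its 12763 bp. The region at 96128454 to 96140672 held 5 peaks over 12219 bp, with a best score of 2629 flanked by a peak of 1319 on one side and peaks of 95.1, 161.4 and 808.0 on the other. The region at 66618909 to 66629778 held 3 peaks over 10870 bp and lay in a window of only 12 peaks. The 2 regions of 6 peaks, at 109448341 to 109457982 and 37377351 to 37385044, had best scores of 915.9 and 1568. A region of 5 peaks at 105459229 to 105469540 combined a peak of 5297 bp and score 3100 with 4 peaks of 570 to 1028 bp that scored 50.2 to 201.2. The named joined regions thus ranged from a row of peaks of like width, most of them of like score, to a single strong peak with weak companions. The largest region of chromosome 10 was narrower than the largest of 12 other autosomes, whose maxima reached 23717 bp.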

How the data were processed

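Per the labels' protocols, chromatin from C6 cells was precipitated with an antibody against H3K4me3 and sequenced on SOLiD beside input DNA. Peak calling by the authors used MACS with input as control, per the file header, and the build is rn4, per the submitters' processing notes. Not given in the sources used here are the aligner, the number of reads, and the MACS version and settings. The deposited score of each peak is the authors' value. Each peak has a position, a name and this score.

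From these, windows, gaps, joined regions, medians and shares were computed with SciPy 1.17.1, pandas 2.3.3 and NumPy 2.4.6 in Python 3.11.15, and figures with matplotlib 3.10.9. Starts are counted from 1. A peak was placed in a window by its centre, and only windows wholly between the first and last peak were used, which left out 40 of the chromosome's peaks at its ends. Density was taken over the span from first to last peak. Chromosome X was not used for comparison. Peaks were joined at gaps of 1000 bp or less. Shares have exact Clopper-Pearson intervals, counts exact Poisson intervals and ratios of densities exact conditional intervals. The code was checked on simulated peaks with planted pairs and blocks.

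Named items were the 5 fullest windows, 5 longest dense blocks, 5 longest gaps, 10 widest peaks, 10 highest scores, 5 widest regions and 5 regions with most peaks, with ties broken by start (for scores, by width first). The chromosome, measures and lists were chosen with earlier results of these data known. The density classes, the weighting by class, the picked stretches and the islands between gaps were added after the profile was seen. Alternatives were a threshold at the median score, a minimum width of 500 bp, other gaps for joining, other window positions, another percentile and other spans. Promoter overlap had been planned for gene positions on rn4 and was not analysed here, and the sequences of peaks were not used here.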

Additional observations from a re-analysis of the deposited data

How the results depend on the processing

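With peaks at or above the median score of the list, 185.6, chromosome 10 had 11.6 peaks per Mb, 2.36% of its span covered, a median width of 1764 bp, a median score of 709.6, 34.6% of scores above 1000, 963 joined regions of which 28.04% held 2 or more peaks, a median of 9 peaks per window and a longest gap of 4.40 Mb. With peaks at least 500 bp wide it had 20.8 peaks per Mb, 3.15% covered, a median width of 1149 bp and a median score of 240.3. Counting joined regions gave 15.8 per Mb. Joining at 500 or 2000 bp made the share of regions with 2 or more peaks 24.2 or 35.4%, and a cut at the 90th percentile gave 39 dense windows. The other 16 of 33 alternatives lay inside the 95% interval of the main value or, for counts, within a factor of 1.5. Among them the density ratio to the other autosomes was 1.97 to 2.07. The number of dense windows was 21 to 24, also with joined regions counted in windows, a setting chosen after seeing the data. For each setting the dense cut was taken anew from the other autosomes. It was 20 for peaks at or above the median score, 27 for joined regions and 38 for shifted windows. The similar numbers therefore do not refer to a fixed cut. Covered bases and the longest gap had no interval, so any change was counted. No paired analysis was possible because the list comes from 1 library alone. The unknown depth leaves peaks near the lowest score inseparable from background beyond the authors' threshold.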

Other observations

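Isolated peaks were rare on chromosome 10. Only 40 peaks, or 1.61% (interval 1.15 to 2.18%), lay more than 100 kb from both neighbours, the lowest share of the 20 autosomes, against 5.12% (4.86 to 5.39%) on the others pooled. The other dense chromosomes were closest, with 1.82% on chromosome 12, inside that interval, 2.38% on chromosome 20 and 2.85% on chromosome 19. A dense chromosome leaves fewer wide gaps, so this share is tied to the density. The isolated peaks themselves looked alike on both sides, with a median width of 838 bp and a median score of 96.3 on chromosome 10 and 877.5 bp and 95.1 on the others. A score above 1000 was found for 3 of the 40, and for 144 of the 1386 isolated peaks of the others.

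The crowding of windows did not reach far along the chromosome. Numbers of peaks in neighbouring 1 Mb windows had a Spearman rho of 0.50 over 108 pairs, inside the 0.25 to 0.69 of the other autosomes. At a distance of 5 windows the rho was -0.16 over 104 pairs, and at 10 windows -0.05 over 99. Relative to its mean, the number of peaks per window varied less than on most autosomes, with a coefficient of variation of 0.90. Higher values were found on 17 autosomes and lower ones on chromosomes 17 and 12, 0.84 and 0.73. The standard deviation itself, 20.1 peaks, was the highest of the 20 autosomes, with 19.5 on chromosome 7 next. The coefficient divides by the mean, which at 22.4 was second of 20, so it is tied to the density.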
